A study of Mus musculus with 8 samples.

Results

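The 37 genes described here carry out DNA replication or govern the passage from G1 into S phase. They are a fixed list of gene symbols, chosen with earlier results of these data known. Each gene was represented by the array row annotated with its symbol alone, the brightest one where a gene had several. All 37 were measured, among 22180 genes tested. RNA came from lung mesenchymal cells of C57BL/6J mice aged 11 weeks and kept under specific pathogen-free conditions. The 4 control arrays came from mice given phosphate-buffered saline (PBS) into the trachea, and the 4 bleomycin arrays from mice given bleomycin, an antibiotic that breaks DNA, by the same route. On day 10, whole lungs were sorted for cells that lacked the leukocyte antigen CD45, the endothelial antigen CD31 and the epithelial antigen EpCAM. The labels name no transgene or reporter, no bleomycin dose, and do not say whether an array held RNA of 1 animal or several. The gate selects by absence, so it keeps every cell type that carries none of the 3 antigens.

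Replication is prepared in G1, when the origin recognition complex, CDC6 and CDT1 load the ring-shaped MCM2-7 helicase onto DNA, a step called licensing. In S phase CDC45 and the GINS complex join the loaded ring, the DNA polymerases copy both strands, and histones are put back on the new DNA. Many of the genes for these proteins are targets of the E2F transcription factors, which the retinoblastoma protein family holds in check until cyclin-dependent kinases inactivate it. Resting fibroblasts of the adult lung divide rarely, and fibroblasts multiply during repair after lung injury.

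Values are log2 intensities, so a difference of 1 is a 2-fold difference. Standard errors (SE) and adjusted p-values are from limma over 4 against 4 arrays, two-sided, and a gene passed the test at an adjusted p under 0.05 over all genes tested. Intensities of different genes are not compared, because each probe set has its own brightness. The arrays measured bulk RNA, in which more replicating cells and more RNA per replicating cell cannot be told apart.

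The sorted cells carried the RNA of mesenchymal cells. The mean of 9 mesenchymal markers was 10.59 to 10.78 on control arrays and 11.03 to 11.34 on bleomycin arrays. Of the 9, 6 passed as higher, among them Col1a1 and Col1a2, and 2 as lower, Pdgfra and Tcf21, by -0.43 ± 0.08 and -0.64 ± 0.19. RNA of the cell types the gate removes was still present. The mean of 12 alveolar epithelial markers was 8.03 to 8.84 on control and 6.62 to 7.40 on bleomycin arrays, and 9 of the 12 passed as lower. Blood endothelial markers had means of 8.06 to 9.13 and 7.18 to 7.72, and 9 of 10 were lower. In both lists control replicates 1 and 2 were higher than control replicates 3 and 4. The 14 measured leukocyte markers overlapped between groups in their mean, at 6.21 to 6.59 and 6.44 to 6.71, with 6 higher and 1 lower. The 6 were Cd68, Itgax, Adgre1, Itgam, Fcer1g and Tyrobp, with differences from 0.70 down to 0.35. They are 42.9% of the list, where 9.12% of all tested genes passed as higher. The lower gene was Cd79a, at -0.84 ± 0.14, and the other 7 did not pass. The overlapping mean thus joins markers that went up with others that did not. On this scale no marker was at 0. Of the gate's own genes, Epcam read 4.71 to 5.22 on control and 3.98 to 4.75 on bleomycin arrays, where the median row without a gene read 4.44 to 4.52 and 4.20 to 4.35, while Pecam1 (CD31) read 9.26 to 10.36 and 8.18 to 8.89 and Ptprc (CD45) 6.23 to 7.01 and 6.16 to 6.26. Rows without a gene were thus dimmer on every bleomycin array than on any control, whereas the median tested gene read 5.47 to 5.49 on control and 5.52 to 5.54 on bleomycin arrays. The part that these cells have in the results below was not tested beyond the fits with marker levels as a covariate.

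Most replication genes were higher after bleomycin, by very different amounts. Of the 37, 25 passed the test as higher, none passed as lower, and 12 did not pass. In the same direction 9.12% of all tested genes passed, and 8.24% passed as lower. All 37 differences were above 0, with a median of 0.66 and a range from 0.02 for Pold1 to 2.37 for E2f8, beside a median of 0.03 over all tested genes. Every bleomycin array lay above every control array for 27 of the 37 (73.0%), which held for 12.5% of all genes. E2f8, Rrm2, Mcm5, Chaf1b, Pole, Uhrf1 and Mcm6 passed with a difference over 2-fold, as did 1.98% of all genes.

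The 12 genes that did not pass were Orc1, Orc6, Mcm4, Gins1, Pola1, Prim1, Pold1, Pcna, Fen1, Rpa1, Rpa2 and E2f2. At an unadjusted p under 0.05 the count of higher members was 33, and Orc1, Pola1, Pold1 and Fen1 were the 4 that missed this level too. The share of all tested genes at that unadjusted level is not given. The count of 33 and the unadjusted counts further below therefore have no background beside them. By role, the counts of passing genes were 8 of 11 for licensing, 3 of 4 for helicase activation, 4 of 11 for polymerases and other fork proteins, 4 of 4 for nucleotide supply, 3 of 3 for chromatin behind the fork and 3 of 4 for G1/S regulators. The smallest median difference was that of the polymerases and fork proteins, 0.35. The largest was that of the 3 chromatin genes, 1.05.

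**Figure D1:**
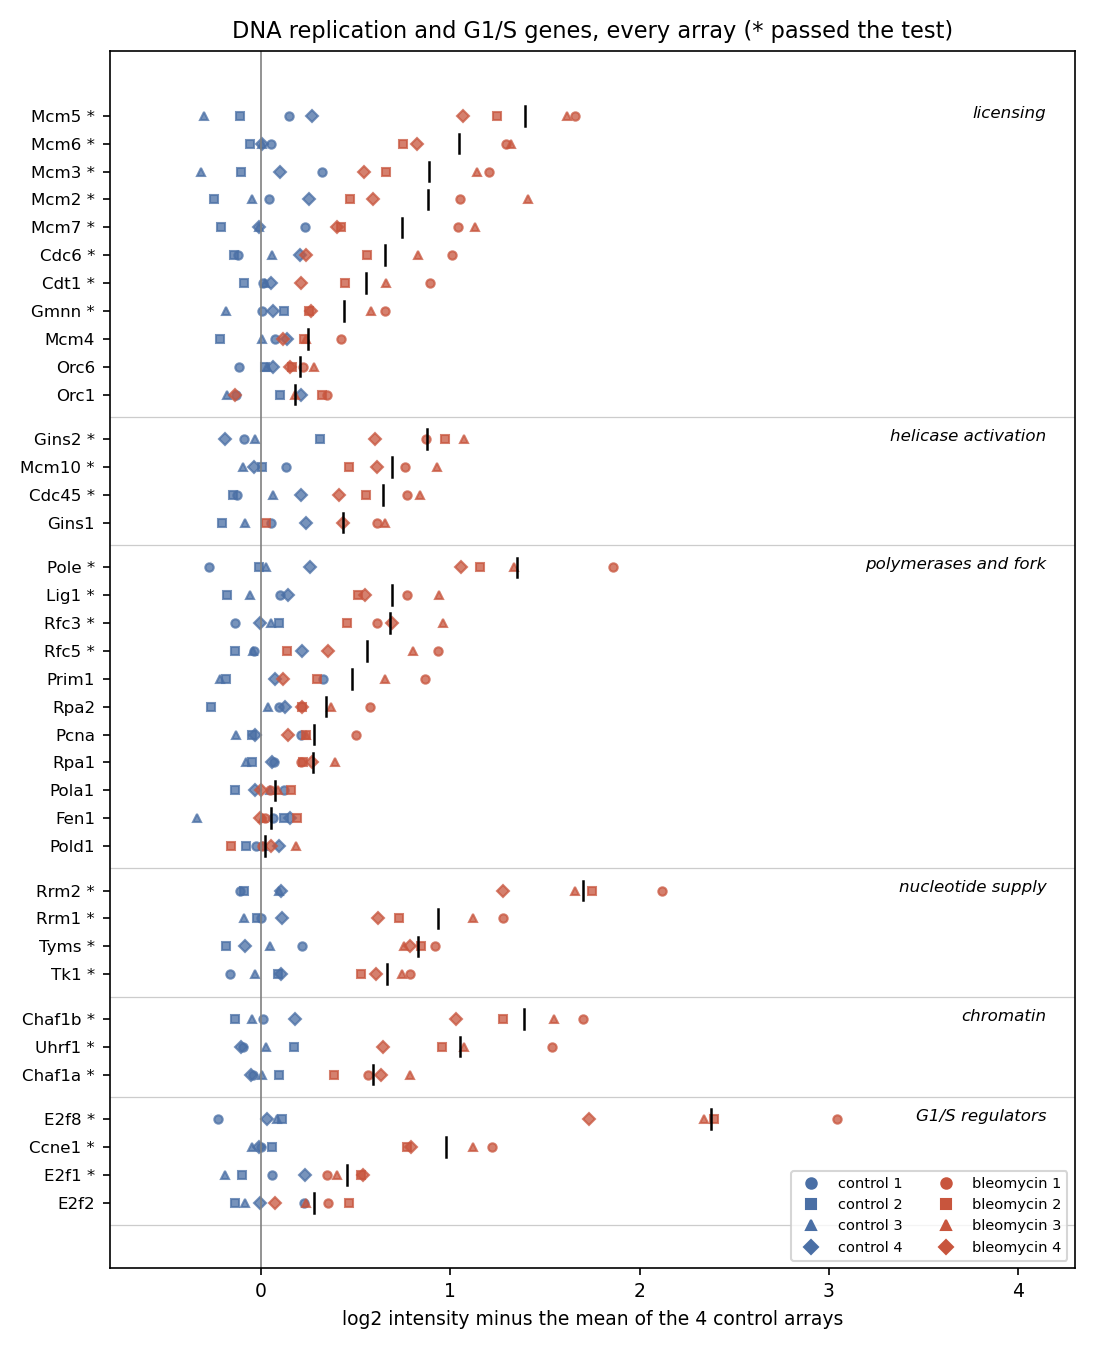
Log2 intensity of each of the 37 genes on every array, minus the mean of its 4 control arrays, grouped by role. Points are single arrays, black bars are bleomycin means, and an asterisk marks the 25 genes that passed; E2f8 lies farthest out at 2.37 and Pold1 at 0.02 sits on the control mean.

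**Figure D2:**
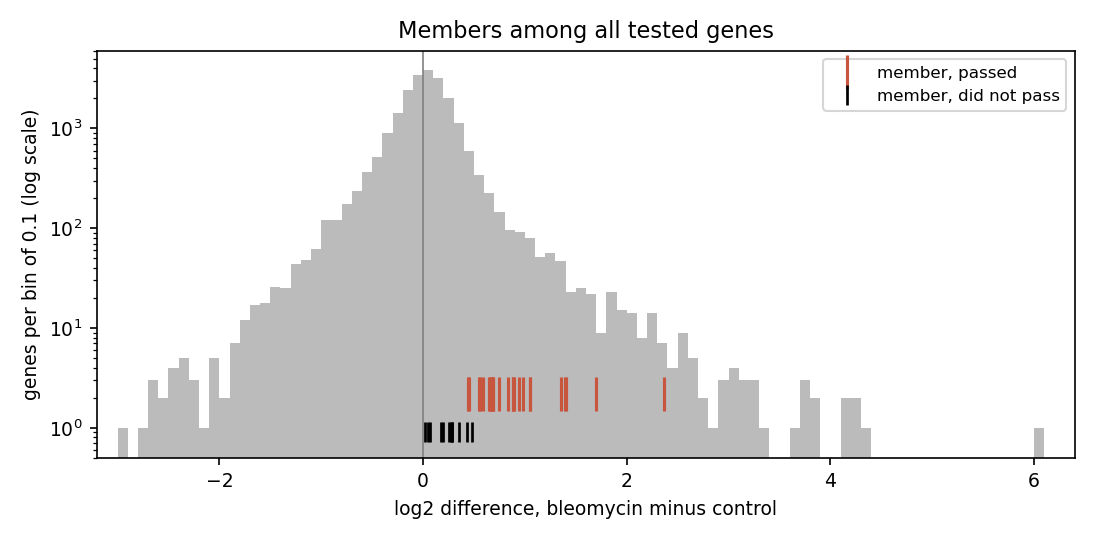
Histogram of the log2 difference between bleomycin and control means over all 22180 tested genes (grey, number of genes on a log axis), with a tick for each of the 37 replication genes, red for the 25 that passed and black for the 12 that did not; tick heights carry no value. All 37 ticks lie to the right of 0, and the median of all genes is 0.03.

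The 4 bleomycin arrays differed among themselves. Measured from each gene's control mean, the median member stood at 0.79 on bleomycin replicate 1, 0.47 on replicate 2, 0.81 on replicate 3 and 0.54 on replicate 4. Replicate 1 was the highest bleomycin array for 20 of the 37 genes and replicate 3 for 13, while replicate 4 was the lowest for 22 and replicate 2 for 12. Mki67, Top2a and Cdk1, proliferation genes that are not replication factors, were higher as well, by 2.94 ± 0.24, 2.78 ± 0.21 and 2.03 ± 0.17 (log2 difference ± SE, adjusted p from 3.14e-05 to 4.9e-05).

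The number of genes that passed depended on which arrays entered the fit and on the marker levels. With replicates 1 and 2 alone 13 of the 37 passed as higher, where 3.78% of all genes did, and with replicates 3 and 4 alone 10 passed, where 2.27% did. Without control replicates 1 and 2, the arrays with more epithelial and endothelial signal, 17 passed against 5.43% of all genes. The difference was above 0 in both replicate pairs for 36 of the 37 genes, with Pold1 the exception. With the leukocyte marker mean as a covariate 23 passed, against 7.87% of all genes. Since that mean joins markers that were higher and lower, this fit does not adjust for the higher ones apart from the rest. With the epithelial and endothelial marker mean as a covariate, which itself separated the groups, limma passed 0 of the 37 (14 at an unadjusted p under 0.05, median difference 0.44, smallest adjusted p 0.148), and 0.243% of all genes passed as higher. In that fit the marker level and the treatment cannot be told apart, so the separate part of each in these differences is not known.

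Since most of these genes were higher together, their promoters were searched for the letters of 3 cell-cycle motifs. RefSeq promoter windows (GRCm38.p6, 250 bases before to 50 after the gene start) were at hand for 32 of the 37 genes, and Gins1, Gins2, Gmnn, Mcm4 and Pole had none. The E2F motif was spelled TTTCCCGC, TTTCGCGC, TTTGCCGC or TTTGGCGC, on either strand. It occurred in 13 of the 32 genes (40.6%), beside 2.60% of the 27025 genes in the table and 3.26% of the tested genes in it. Counted over windows of the same length, the shares were 34.2% and 2.26%. The share was much the same for genes that passed and genes that did not, 9 of 22 and 4 of 10.

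CCAAT, the letters of the NF-Y box, occurred in 21 of the 32 genes (65.6%), beside 41.1% of all genes in the table. The letters TTTGAA or TTCGAA of the cell-cycle homology region (CHR) were found in 7 (21.9%), beside 21.7%. Matches are descriptions of these windows and say nothing on binding. Large and small differences were found with the letters and without them. Of the genes with large differences, E2f8, Rrm2 and Chaf1b held none in the window and Mcm5, Mcm6 and Uhrf1 did. Of the 3 smallest differences, Pold1 and Pola1 held them and Fen1 did not.

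Shown are the 170 bases before the start of 6 genes, chosen to set promoters with E2F letters beside promoters without them, and large differences beside a small one. Mcm5 (chr8:75109339-75109508, plus strand, difference 1.40), Mcm6 (chr1:128359706-128359875, minus strand, 1.05), Cdc6 (chr11:98907981-98908150, plus strand, 0.66) and Pola1 (chrX:93632156-93632325, minus strand, 0.07) hold E2F letters in this stretch. Rrm2 (chr12:24708084-24708253, plus strand, 1.70) and E2f8 (chr7:48881597-48881766, minus strand, 2.37) hold none. Each reads 5′ to 3′ on the strand of the gene, and capitals mark matches to the E2F, CCAAT or CHR letters on either strand.
Mcm5: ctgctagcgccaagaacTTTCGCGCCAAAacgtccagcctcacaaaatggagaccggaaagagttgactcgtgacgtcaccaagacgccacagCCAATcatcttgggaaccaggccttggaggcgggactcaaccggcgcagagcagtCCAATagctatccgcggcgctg
Mcm6: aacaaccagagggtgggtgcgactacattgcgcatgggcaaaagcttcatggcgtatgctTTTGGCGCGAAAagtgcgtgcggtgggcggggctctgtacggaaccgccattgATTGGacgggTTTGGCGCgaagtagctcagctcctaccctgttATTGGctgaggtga
Cdc6: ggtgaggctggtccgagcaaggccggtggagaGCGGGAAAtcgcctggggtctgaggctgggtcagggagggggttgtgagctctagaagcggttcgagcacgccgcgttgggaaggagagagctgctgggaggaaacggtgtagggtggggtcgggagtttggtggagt
Pola1: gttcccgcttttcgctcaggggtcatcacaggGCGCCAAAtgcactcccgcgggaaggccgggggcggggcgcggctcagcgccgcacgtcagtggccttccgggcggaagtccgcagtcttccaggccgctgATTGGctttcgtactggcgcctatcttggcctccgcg
Rrm2: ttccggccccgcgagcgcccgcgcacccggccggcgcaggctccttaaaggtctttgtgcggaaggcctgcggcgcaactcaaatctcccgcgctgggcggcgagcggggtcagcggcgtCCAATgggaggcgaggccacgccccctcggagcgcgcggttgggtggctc
E2f8: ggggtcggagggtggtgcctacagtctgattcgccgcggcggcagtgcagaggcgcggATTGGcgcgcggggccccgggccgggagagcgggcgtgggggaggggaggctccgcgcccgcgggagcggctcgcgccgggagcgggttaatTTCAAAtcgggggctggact
In Mcm5 and Mcm6 an E2F match on one strand overlaps a match on the other, and the joined run in Mcm6 is the reverse complement of the one in Mcm5. Mcm6 holds another E2F match closer to the start. Cdc6 and Pola1 each hold a single E2F match at the same position, -138 from the start, beside log2 differences of 0.66 and 0.07. The capitals in Rrm2 are a CCAAT box, and those in E2f8 a CCAAT box and a CHR.

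**Figure D3:**
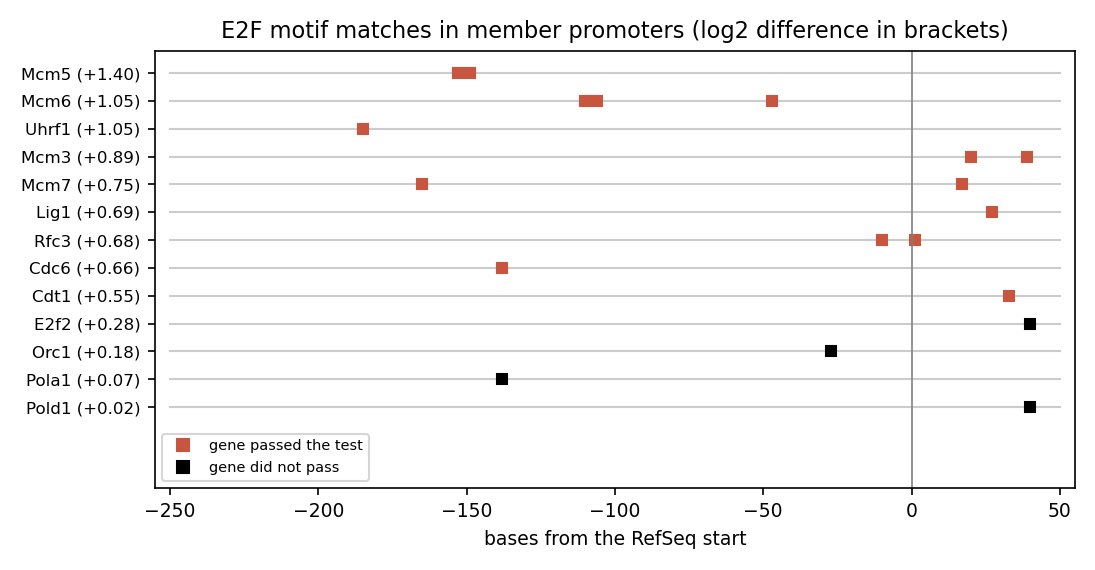
Positions of E2F motif matches in the promoters of the 13 genes that hold one, as bases from the RefSeq start (0), with each gene's log2 difference in brackets. Genes that passed and genes that did not both hold matches, before the start and after it.

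Of the 11 licensing genes, 8 passed as higher, 5 of the 6 for the MCM ring and the 3 for its loaders and their inhibitor, and Orc1, Orc6 and Mcm4 did not pass. Mcm5, a subunit of the ring, read 5.41, 5.15, 4.96 and 5.53 on control arrays 1 to 4 and 6.92, 6.51, 6.88 and 6.33 on bleomycin arrays 1 to 4. The groups were far apart, with a difference of 1.40 ± 0.16 (SE, adjusted p = 0.00037), or 2.64-fold. Mcm6, another ring subunit, read 6.35, 6.24, 6.30 and 6.30 in controls and 7.59, 7.05, 7.62 and 7.12 after bleomycin. Its controls hardly differed, and bleomycin replicates 1 and 3 stood above replicates 2 and 4 (1.05 ± 0.14, adjusted p = 0.000666). Mcm3, also of the ring, read 6.17, 5.74, 5.53 and 5.95 in controls and 7.05, 6.51, 6.99 and 6.39 after bleomycin. It rose by 0.89 ± 0.18 (adjusted p = 0.00749), with the lowest bleomycin array above the highest control.

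Mcm2 and Mcm7 rose by 0.88 ± 0.20 and 0.75 ± 0.18, so that 5 of the 6 ring genes passed. The exception was Mcm4, at 7.63 to 7.98 in controls and 7.96 to 8.27 after bleomycin, with a difference of 0.25 ± 0.11 (95% interval 0.02 to 0.49, adjusted p = 0.135). The ratio of subunits within an array was then computed, as it was for 28 gene pairs in all, which were chosen after the values were seen and are given with no test. All 5 ratios over Mcm4 were higher on every bleomycin array than on any control, by 1.15 for Mcm5, 0.79 for Mcm6, 0.64 for Mcm3, 0.63 for Mcm2 and 0.49 for Mcm7. The ratio of Mcm5 to Mcm6 was higher by 0.35, with overlap between groups, and that of Mcm3 to Mcm2 differed by 0.00. Mcm4 had the smallest difference of the 6 ring genes, so the ratios over it had to shift upward. In these and the later ratios, the size and direction of a shift follow from the differences of the single genes.

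The loaders of the ring and their inhibitor had differences of 0.44 to 0.66. Cdc6, the ATPase that brings the ring to origins, rose by 0.66 ± 0.16 (adjusted p = 0.0180), and Cdt1, its partner in loading, by 0.55 ± 0.14 (adjusted p = 0.0185). Gmnn, which encodes geminin, the inhibitor of CDT1, rose by 0.44 ± 0.12 (adjusted p = 0.0300). All 3 had groups that did not overlap. For Cdc6, 2 of the 4 control arrays were dimmer than the median row without a gene. Orc6, a subunit of the origin recognition complex, had non-overlapping groups too, 6.75 to 6.93 and 7.02 to 7.15, but its difference of 0.20 ± 0.08 did not pass (adjusted p = 0.127).

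Orc1, the cell-cycle-regulated subunit of that complex, read 3.76, 3.99, 3.71 and 4.10 in controls and 4.24, 4.21, 4.07 and 3.75 after bleomycin. Bleomycin replicates 1 and 2 lay above every control, replicate 3 inside the control range and replicate 4 near its lower end (0.18 ± 0.13, adjusted p = 0.419). All its control arrays were dimmer than the median row without a gene, which was 4.44 to 4.52 on control arrays, so a change could be understated. Of the 6 subunits of the complex, 0 passed as higher with limma, 2 had an unadjusted p under 0.05, and these were Orc6 and Orc5. Orc5 fell by 0.33 ± 0.09 (adjusted p = 0.0261).

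Helicase activation joins CDC45 and GINS to the ring, and 3 of its 4 genes were higher. Gins2, a GINS subunit, read 5.19, 5.59, 5.25 and 5.09 in controls and 6.15, 6.25, 6.35 and 5.88 after bleomycin. All bleomycin arrays were above the controls, by 0.88 ± 0.14 (adjusted p = 0.00161). Mcm10, which helps start the assembled helicase, read 4.94, 4.81, 4.71 and 4.77 and then 5.57, 5.27, 5.74 and 5.42, and it rose by 0.69 ± 0.11 (adjusted p = 0.00211). Cdc45, the helicase cofactor, read 4.67, 4.65, 4.86 and 5.01 and then 5.57, 5.35, 5.64 and 5.21, and it rose by 0.65 ± 0.12 (adjusted p = 0.00523). In both, replicate 3 was the highest bleomycin array. Gins1, another GINS subunit, read 4.04, 3.78, 3.90 and 4.22 in controls and 4.60, 4.01, 4.64 and 4.42 after bleomycin. Replicate 2 lay inside the control range, and the difference of 0.43 ± 0.15 did not pass (adjusted p = 0.0771). Without bleomycin replicate 2 it was 0.57 and passed (adjusted p = 0.0141), and all its controls were dimmer than the median row without a gene. Of the other GINS subunits, Gins3 and Gins4 had differences of 0.18 ± 0.11 and 0.01 ± 0.10 and did not pass.

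Of the catalytic subunits of the 3 replicative polymerases, that of polymerase epsilon passed as higher, and those of delta and alpha did not pass. Pole, the catalytic subunit of polymerase epsilon, which copies the leading strand, read 4.43, 4.69, 4.73 and 4.96 in controls and 6.56, 5.86, 6.04 and 5.76 after bleomycin. The groups were widely separated and replicate 1 was the highest (1.35 ± 0.18, adjusted p = 0.000601). Pold1, the catalytic subunit of polymerase delta, which copies the lagging strand, read 5.98, 5.93, 6.02 and 6.10 in controls and 6.01, 5.85, 6.19 and 6.06 after bleomycin. These values overlapped fully, with a difference of 0.02 ± 0.09 (95% interval -0.19 to 0.23, adjusted p = 0.919). Pola1, the catalytic subunit of polymerase alpha, which starts new strands, was at 6.31 to 6.57 and 6.45 to 6.61, a difference of 0.07 ± 0.09 (95% interval -0.12 to 0.27, adjusted p = 0.616). A 2-fold rise lies outside the intervals of both.

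Within arrays, the ratio of Pole to Pold1 was higher after bleomycin by 1.34 and that of Pole to Pola1 by 1.28. The ratio of Pola1 to Pold1 differed by 0.06. Pole is read here from its brighter probe set. Its dimmer one, below the median row without a gene in all controls, differed by 0.02 ± 0.22. Over whole enzymes, 3 of the 4 subunits of polymerase epsilon passed as higher, Pole, Pole2 at 0.83 ± 0.13 and Pole3 at 0.42 ± 0.11, with Pole4 at 0.19 ± 0.08 not passing. Of the 4 subunits of polymerase delta, limma passed 0, with 0 at an unadjusted p under 0.05, and the differences ran from -0.18 to 0.10 with 95% intervals inside -0.46 to 0.34. One of the 4 genes of polymerase alpha and primase passed, Prim2 at 0.50 ± 0.14 (adjusted p = 0.0326).

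**Figure D4:**
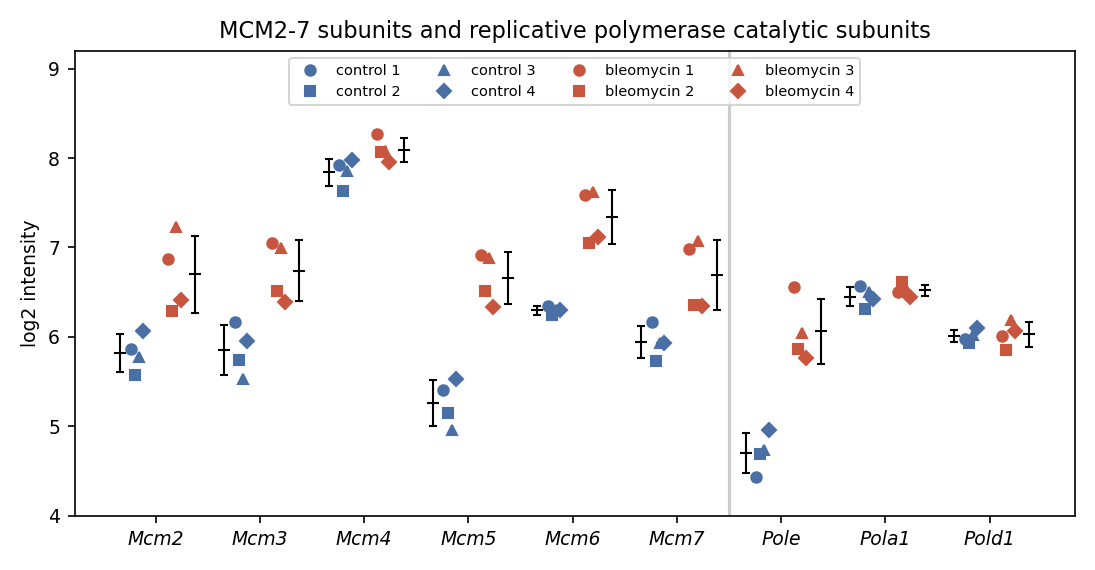
Log2 intensity on every array of the 6 genes of the MCM2-7 ring and of the catalytic subunits of the 3 replicative polymerases, with control and bleomycin arrays side by side; black bars beside the points are means with SD (n = 4). Mcm4, Pola1 and Pold1 overlap between groups, and the other genes do not; heights of different genes are not comparable.

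Other fork genes fell between these. Lig1, the ligase that seals the fragments of the lagging strand, read 6.07, 5.79, 5.91 and 6.11 in controls and 6.74, 6.48, 6.91 and 6.52 after bleomycin. Every bleomycin array exceeded every control (0.69 ± 0.12, adjusted p = 0.00304). Rfc3, a subunit of the loader that places the sliding clamp on DNA, read 4.45, 4.68, 4.64 and 4.58 and then 5.20, 5.04, 5.55 and 5.28. It rose by 0.68 ± 0.11 (adjusted p = 0.00272), again with no overlap. Rfc5, of the same loader, rose by 0.56 ± 0.17 (adjusted p = 0.0471), the only passing member whose groups overlapped. Rfc2 rose by 0.59 ± 0.12, whereas Rfc1, the large subunit, had a difference of 0.02 ± 0.09.

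Pcna, the sliding clamp itself, was bright in both groups, at 8.68 to 9.02 and 8.95 to 9.31, and its difference of 0.28 ± 0.11 did not pass (adjusted p = 0.112). Rpa1 and Rpa2, which coat single-stranded DNA, had non-overlapping groups and differences of 0.27 ± 0.08 and 0.35 ± 0.12 that just missed the threshold (adjusted p = 0.0502 and 0.0747). Rpa3, of the same complex, was at 0.42 ± 0.15 (adjusted p = 0.0745). Prim1, the catalytic primase subunit, was at 0.48 ± 0.18 (adjusted p = 0.0905). Without bleomycin replicate 4 its difference was 0.61 and passed (adjusted p = 0.0366).

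Fen1, the nuclease that trims the ends of lagging-strand fragments, depended on the probe set. Its brighter probe set was at 4.52 to 5.01 in controls and 4.85 to 5.05 after bleomycin, a difference of 0.05 ± 0.12 (adjusted p = 0.804). The dimmer one read 4.01, 3.95, 4.31 and 4.58 in controls and 5.22, 4.56, 5.45 and 5.0 after bleomycin. It differed by 0.85 ± 0.21 (adjusted p = 0.0345 over all rows of the table), with bleomycin replicate 2 just below control replicate 4. Of its 4 control arrays, 3 were dimmer than the median row without a gene. Which probe set follows the Fen1 transcript was not tested. Pole, Rrm2 and Rpa1 had a second probe set as well, each dimmer in all controls than the median row without a gene, with differences of 0.02 ± 0.22, 0.09 ± 0.13 and 0.50 ± 0.16 that did not pass. With the mean of both probe sets Pole was at 0.69 and Rrm2 at 0.89, both passing but under 2-fold (adjusted p = 0.0146 and 0.000454), and Fen1 and Rpa1 passed, at 0.45 and 0.39 (adjusted p = 0.0221 and 0.0226).

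All 4 genes of nucleotide supply were higher, and none overlapped between groups. Rrm2, the S-phase subunit of ribonucleotide reductase, which makes deoxyribonucleotides, read 5.18, 5.20, 5.39 and 5.40 in controls and 7.41, 7.04, 6.95 and 6.57 after bleomycin. Only E2f8 had a larger difference among the 37 (1.70 ± 0.16, adjusted p = 9.85e-05, 3.25-fold). Rrm1, the large subunit of the same enzyme, read 7.43, 7.41, 7.34 and 7.54 and then 8.71, 8.16, 8.55 and 8.05, a rise of 0.94 ± 0.14 (adjusted p = 0.00154). The ratio of Rrm2 to Rrm1 within arrays was higher by 0.76 after bleomycin. Rrm2 is read here from its brighter probe set. Its dimmer one, below the median row without a gene in all controls, differed by 0.09 ± 0.13.

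Tyms, thymidylate synthase, read 6.50, 6.10, 6.33 and 6.20 in controls and 7.20, 7.13, 7.04 and 7.07 after bleomycin. Its bleomycin arrays were the most alike of the 4 genes (0.83 ± 0.10, adjusted p = 0.000476). Tk1, the thymidine kinase of S phase, read 5.22, 5.47, 5.35 and 5.49 and then 6.17, 5.91, 6.13 and 5.99, and it rose by 0.67 ± 0.10 (adjusted p = 0.00133).

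Genes for chromatin behind the fork were all higher. Chaf1b, a subunit of the histone chaperone CAF-1, read 5.12, 4.97, 5.06 and 5.29 in controls and 6.81, 6.39, 6.66 and 6.14 after bleomycin. The groups were well apart (1.39 ± 0.14, adjusted p = 0.000194). Chaf1a, the large subunit of CAF-1, read 4.91, 5.05, 4.96 and 4.90 and then 5.52, 5.34, 5.74 and 5.59, a smaller rise of 0.59 ± 0.10 (adjusted p = 0.00286). The ratio of Chaf1b to Chaf1a within arrays was higher by 0.80 after bleomycin. Uhrf1, which guides maintenance DNA methylation to new strands, read 5.51, 5.78, 5.63 and 5.50 in controls and 7.14, 6.56, 6.68 and 6.25 after bleomycin. It rose by 1.05 ± 0.17 (adjusted p = 0.00186), most on replicate 1 and least on replicate 4.

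Of the G1/S regulators, E2f8 had the largest difference of all 37 genes. E2f8, an atypical E2F that represses transcription, read 4.09, 4.43, 4.40 and 4.35 in controls and 7.36, 6.71, 6.66 and 6.05 after bleomycin. Replicate 4, the lowest bleomycin array, still stood far above every control (2.37 ± 0.23, adjusted p = 0.000113, 5.19-fold). All its controls were dimmer than the median row without a gene, so the size of the fold is less certain than its direction. Ccne1, which encodes cyclin E1, the partner of CDK2 at the G1/S transition, read 5.0, 5.06, 4.95 and 4.99 in controls and 6.22, 5.77, 6.12 and 5.79 after bleomycin. Its controls hardly varied, and it rose by 0.98 ± 0.11 (adjusted p = 0.000373).

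Activating E2F genes had smaller differences than E2f8. E2f1 read 6.44, 6.28, 6.19 and 6.61 in controls and 6.73, 6.91, 6.78 and 6.92 after bleomycin, a rise of 0.45 ± 0.11 (adjusted p = 0.0162). E2f2 read 5.53, 5.17, 5.22 and 5.30 and then 5.66, 5.77, 5.54 and 5.38. Its groups overlapped through bleomycin replicate 4 (0.28 ± 0.11, 95% interval 0.03 to 0.53, adjusted p = 0.121). E2f3, another activating E2F that is not among the 37, rose by 0.72 ± 0.14 (adjusted p = 0.00621). Within arrays, the ratio of E2f8 to E2f1 was higher by 1.92 and that of E2f8 to E2f2 by 2.09, while that of E2f1 to E2f2 differed by 0.17.

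Other genes of the same machinery were read from a list of 66, of which 62 were measured. Of these, 27 (43.5%) passed as higher, 7 (11.3%) passed as lower and 28 did not pass, with a median difference of 0.34. The share of lower genes was near that of all tested genes, 8.24%, and the share of higher genes stood beside 9.12%. Ccna2, the S-phase cyclin A2, rose by 2.41 ± 0.24 (adjusted p = 0.000156). Hells, a chromatin remodeller needed for DNA methylation, rose by 2.0 ± 0.20 (adjusted p = 0.000173), and Dbf4, the activator of the CDC7 kinase, by 1.35 ± 0.17 (adjusted p = 0.000529). For Cdc7 itself the difference was 0.08 ± 0.12 (adjusted p = 0.708). The next largest were Asf1b, a histone chaperone, at 1.03 ± 0.21, E2f7, the other atypical E2F, at 1.01 ± 0.13, and Ticrr, which helps recruit CDC45, at 0.95 ± 0.15. All controls of Hells and Ticrr were dimmer than the median row without a gene, so the sizes of their differences are uncertain. For Dbf4, control arrays 2, 3 and 4 were dimmer as well. They read 4.05, 4.48 and 4.36, beside 4.50, 4.52 and 4.44 for that median row.

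The 7 lower genes were Tk2, the mitochondrial thymidine kinase, Rrm2b, the p53-inducible subunit of ribonucleotide reductase, Asf1a, a histone chaperone, Rbl2, which encodes the p130 protein of quiescent cells, Samhd1, which degrades deoxyribonucleotides, Orc5 and Tfdp2, an E2F partner. Their differences were -0.59 ± 0.12, -0.44 ± 0.11, -0.40 ± 0.10, -0.38 ± 0.11, -0.35 ± 0.08, -0.33 ± 0.09 and -0.31 ± 0.09 in that order, with adjusted p from 0.00734 to 0.0431. This count of 7 was less firm than the count of higher genes. It was 2 without control replicate 1, 4 without control replicate 3 or 4, 3 without bleomycin replicate 1 and 2 without bleomycin replicate 3. Over all 22180 tested genes, 1828 passed as lower with all arrays and 1306 to 1492 in those fits.

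Of these lower genes, 5 have a counterpart of similar name that was higher. Of the 5, only Tk2 passed as lower in every limma fit that left out 1 array. Without control replicate 1, Rrm2b, Asf1a, Rbl2 and Tfdp2 missed the threshold (adjusted p from 0.0538 to 0.114). Within arrays, the ratio of Rrm2 to Rrm2b was higher after bleomycin by 2.14, running from -2.33 to -2.03 in controls and from -0.51 to 0.56 after bleomycin. The ratio of Asf1b to Asf1a was higher by 1.43 and that of Tk1 to Tk2 by 1.26. For Rbl1 over Rbl2, the retinoblastoma relatives p107 and p130, the shift was 1.21, and for Tfdp1 over Tfdp2 it was 1.07. Since each pair joined a higher and a lower gene, these shifts follow from the differences already given. Rbl1 alone rose by 0.83 ± 0.14 (adjusted p = 0.00294) and Tfdp1 by 0.76 ± 0.11 (adjusted p = 0.00108).

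**Figure D5:**
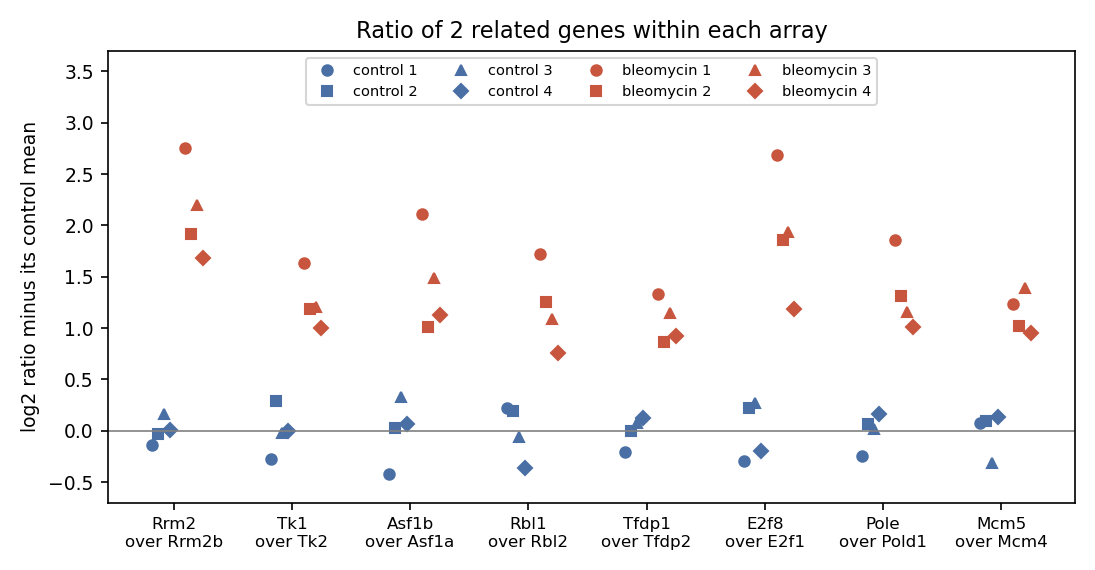
Log2 ratio of the genes of a pair within each array, minus the mean ratio of the 4 control arrays. Shown are 8 of the 28 gene pairs computed, chosen after their values were seen. Points are single arrays. The shift runs from 1.07 for Tfdp1 over Tfdp2 to 2.14 for Rrm2 over Rrm2b.

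Of the 25 genes that passed, 20 also passed in each of the 8 fits that left out 1 array. Cdc6 missed the threshold without control replicate 1 or 2 or bleomycin replicate 3 (adjusted p = 0.0516, 0.0507 and 0.0535). Cdt1 missed it without control replicate 2 or bleomycin replicate 3 (adjusted p = 0.0506 and 0.0539), and Mcm7 without bleomycin replicate 1 (adjusted p = 0.0509). Gmnn missed it without control replicate 1, 3 or 4 or bleomycin replicate 1 or 3 (adjusted p from 0.0508 to 0.0864). Rfc5 missed it without control replicate 1, 2 or 3 or bleomycin replicate 1 or 3 (adjusted p from 0.0992 to 0.122). The differences of these 5 genes stayed between 0.37 and 0.65 in those fits.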

How the data were processed

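The values are log2 intensities, 1 per probe set and array, as deposited by the authors. The scale was inferred from their range and is not named in the table. How background was corrected, probes summarised and arrays normalized is not given in the sources used here. Per the labels' protocols, biotinylated cRNA was made from total RNA. Of 41345 rows, 23521 had 1 gene in the platform annotation, 1814 several and 16010 none, and the last 2 kinds were not named. Each of 22180 genes was represented by its brightest row. Values were used as deposited, since array medians over tested genes lay within 0.071 of each other. Arrays have no read depth, and precision is limited by their number, the spread between them and values near those of rows without a gene. No label states that replicates are separate animals, and p-values measure the spread between these samples.

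The comparison of bleomycin with control used limma 3.58.1 (lmFit, eBayes) under R 4.3.3, adjusted by Benjamini-Hochberg over all tested genes. Ratios of gene pairs within arrays are given with no test. On simulated data with 22180 genes the limma comparison of bleomycin with control found 49.3% of changes of 1.5-fold, 85.1% of those of 2-fold and 100% of those of 4-fold, with 4.88% false calls. The share of genes that were changed in those data is not given. Whether the same rates hold for the measured arrays was not tested. Alternatives were replicate blocks, subsets of arrays, normalization, filters on dim genes, the mean of probe sets, other eBayes settings, array weights and marker covariates.

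Members and lists were chosen with earlier results of these data known. Every member is named, with values of all arrays for the 3 largest and the smallest difference of each role with over 4 members and for all members of smaller roles. Of the other replication genes, the 6 largest passing differences in each direction were to be named. Cdc7, E2f3, Gins3, Gins4, Pole2, Pole3, Pole4, Prim2, Rfc1, Rfc2, Rpa3, Rbl1, Tfdp1 and Tfdp2, the counts by enzyme and the gene pairs were chosen after values were seen. Figures were drawn with matplotlib 3.10.9.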

Additional observations from a re-analysis of the deposited data

Results flagged for a closer look

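In 5 of the 106 groups of 4 arrays examined, for the 37 genes and 16 other replication genes, 1 array stood apart from the other three by Dixon's criterion, which chance does in about 1 of 20 groups. Bleomycin replicate 2 read 5.05 for Fen1, where the others lay at 4.85 to 4.88. Control replicate 1 read 3.57 for Hells, where the others lay at 4.25 to 4.34. For Orc5, control replicate 4 read 7.07 beside 7.13 to 7.15, and bleomycin replicate 4 read 6.97 beside 6.71 to 6.75. Control replicate 4 read 8.24 for Tfdp1, where the others lay at 7.98 to 8.02. In each case but Fen1, which did not pass, the groups still did not overlap.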

How the results depend on the processing

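The count of 25 higher members was 13 with replicates 1 and 2 alone, 10 with replicates 3 and 4 alone and 0 with the epithelial and endothelial marker covariate (14 at an unadjusted p under 0.05 with limma). It was 24 with the replicate block and 21 to 26 when 1 array was left out. Over all 22180 tested genes, 2022 passed as higher with all arrays, and 838, 503 and 54 in those first 3 fits. The counts over all genes were 1937 with the replicate block and 1497 to 1987 without 1 array. The 27 other replication genes that were higher became 14, 5 and 0 in the same 3 fits (28, 25 and 9 at an unadjusted p under 0.05). Those lower, 7 with all arrays, became 0 in each (5, 4 and 1 at an unadjusted p under 0.05), 1 without control replicates 1 and 2, 4 with the leukocyte covariate, and 2 to 6 when 1 array was left out. Over all tested genes, 1828 passed as lower with all arrays and 833, 220 and 6 in those 3 fits. They numbered 992 without control replicates 1 and 2, 1651 with the leukocyte covariate and 1306 to 1883 without 1 array. The E2F letters were in 8 members rather than 13 within the 250 bases before the start alone, beside 2.16% of genes.

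Signs changed only for members that did not pass. With the epithelial and endothelial covariate Orc1 was at -0.0482, Pola1 at -0.00444 and Pold1 at -0.139. Pold1 was at -0.0251 with replicates 1 and 2 alone, -0.0331 without control replicates 1 and 2, -0.0308 after median centring, and -0.0359 to 0.0776 when 1 array was left out. Fen1 ran from -0.0592 to 0.105 when 1 array was left out. The causes were not tested. Under the replicate block Gmnn and Rfc5 missed the threshold (adjusted p = 0.0672 and 0.0553) and Gins1 passed (0.048), as it did after quantile normalization. Same-numbered arrays deviated together with correlations of 0.0631 to 0.129, but other pairs did as much (0.109 for control 4 with bleomycin 3). Deviations from group means cancel within each group, so these correlations cannot show what a shared number stands for. Correlations were negative between arrays 1 and 2 of one group and 3 and 4 of the other, and with that split as a block 25 members passed, Rfc5 missing the threshold (adjusted p = 0.0552) and Rpa1 passing (0.0435). Rpa1 passed in 7 alternatives and Rpa2 in 3. Median centring and quantile normalization moved the median of all genes by -0.05 and 0.05. Values near those of rows without a gene limit Orc1, Gins1, E2f8, Hells and Ticrr, and in part Cdc6, Dbf4 and the dimmer probe set of Fen1.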
